A study of Macaca mulatta with 16 samples.

Results

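Expression of 10 genes of smooth muscle cells and pericytes was measured in the fetal lung of rhesus macaques exposed to intraamniotic lipopolysaccharide (LPS), with or without betamethasone-acetate (Beta-Ac). The genes are ACTA2, ACTG2, MYH11, LMOD1, TAGLN, CNN1 and DES, which code for contractile and cytoskeletal proteins, and PDGFRB, CSPG4 and NOTCH3, which code for surface proteins of pericytes and of vascular smooth muscle. Their rows were taken by symbol, from a list drawn up with earlier results of these data known. Each of the 10 symbols matched 1 Ensembl row of the 22515 in the table of counts, and all 10 passed the filter on low counts, as did 19199 genes in all.

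The 16 samples analysed here fell into 5 groups of fetuses, with 1 library of bulk lung RNA per animal. Untreated preterm controls (n = 4) were delivered at 131 to 135 days of gestation, and untreated term controls (n = 2) at 156 and 157 days. The LPS 16h group (n = 4) received 1 mg of LPS into the amniotic fluid and was delivered 16 hours later, at 130 or 131 days, and the LPS 5d group (n = 3) received the same dose and was delivered 5 days later, at 131 to 134 days. In the LPS + Beta-Ac 5d group (n = 3), delivered at 131 or 132 days, the same LPS exposure was combined with 0.125 mg/kg of Beta-Ac, a slowly released glucocorticoid injected into the muscle of the dam. Both kinds of control had no intervention, so they do not account for the injection itself. Animals given Beta-Ac alone were not analysed here, and the labels give neither sex nor sequencing batch.

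Smooth muscle cells surround the airways and the pulmonary arteries, and pericytes wrap capillaries. Both contract by sliding myosin along actin, and their mature state is marked by alpha and gamma smooth muscle actin, smooth muscle myosin heavy chain, and proteins that bind the actin filaments. The transcription factor SRF with its coactivator myocardin drives many of these contractile genes. PDGF-B from endothelium recruits mural cells through the receptor PDGFRB, Notch ligands on endothelium signal to NOTCH3 on the mural cell, and CSPG4, also known as NG2, is a proteoglycan on the surface of pericytes. In the fetal lung, cells expressing ACTA2 and TAGLN also include myofibroblasts at the tips of developing septa.

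Libraries of the LPS 16h group were deeper than the others, with totals of 30596371 to 48052891 counts on genes against 20169363 to 28348816, and the smallest count of any of the 10 genes in any library was 207, of CNN1. Levels are given as TMM-scaled CPM, in which each library total was adjusted for differences in composition before counts were divided by it, and are called CPM here, and differences as log2 fold changes from limma with 1 standard error (SE). A gene is said to have passed the test at a Benjamini-Hochberg adjusted p below 0.05 over all genes tested, and to have been called when it also changed at least 2-fold. One library stood apart in its muscle markers. In LPS 5d animal 240, 17 markers of heart and skeletal muscle, of which MYOD1 was at 0 in every library, summed to 1562 CPM, against 36.6 to 116 CPM in the other 15 animals, and MYH7, the slow myosin heavy chain of heart, was at 525 CPM there and at or below 2.32 CPM elsewhere. Results on LPS 5d whose test or direction depended on this animal are also given without it.

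Of the 7 contractile genes, ACTA2, ACTG2 and MYH11 were lower than in preterm controls in all 4 other groups, by 1.60-fold to 2.96-fold. TAGLN was lower in both 5-day groups and at term, DES was higher at 16 hours, CNN1 was lower at 16 hours, and LMOD1 was lower in LPS + Beta-Ac. TAGLN also passed the test higher at 16 hours, but not with library totals in place of TMM. The test was lost when certain single animals were left out for TAGLN at 16 hours, in LPS 5d and at term, for ACTA2 and MYH11 at term, for ACTG2 in LPS 5d and for CNN1 at 16 hours. Of the mural genes, CSPG4 fell by 1.16 on the log2 scale at 16 hours, and PDGFRB passed the test in none of the 4 contrasts. In bulk tissue, fewer cells of a type and less RNA per cell cannot be told apart. The 4 contrasts share the same preterm controls, so their values are set side by side and their resemblance is not a result.

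**Figure D1:**
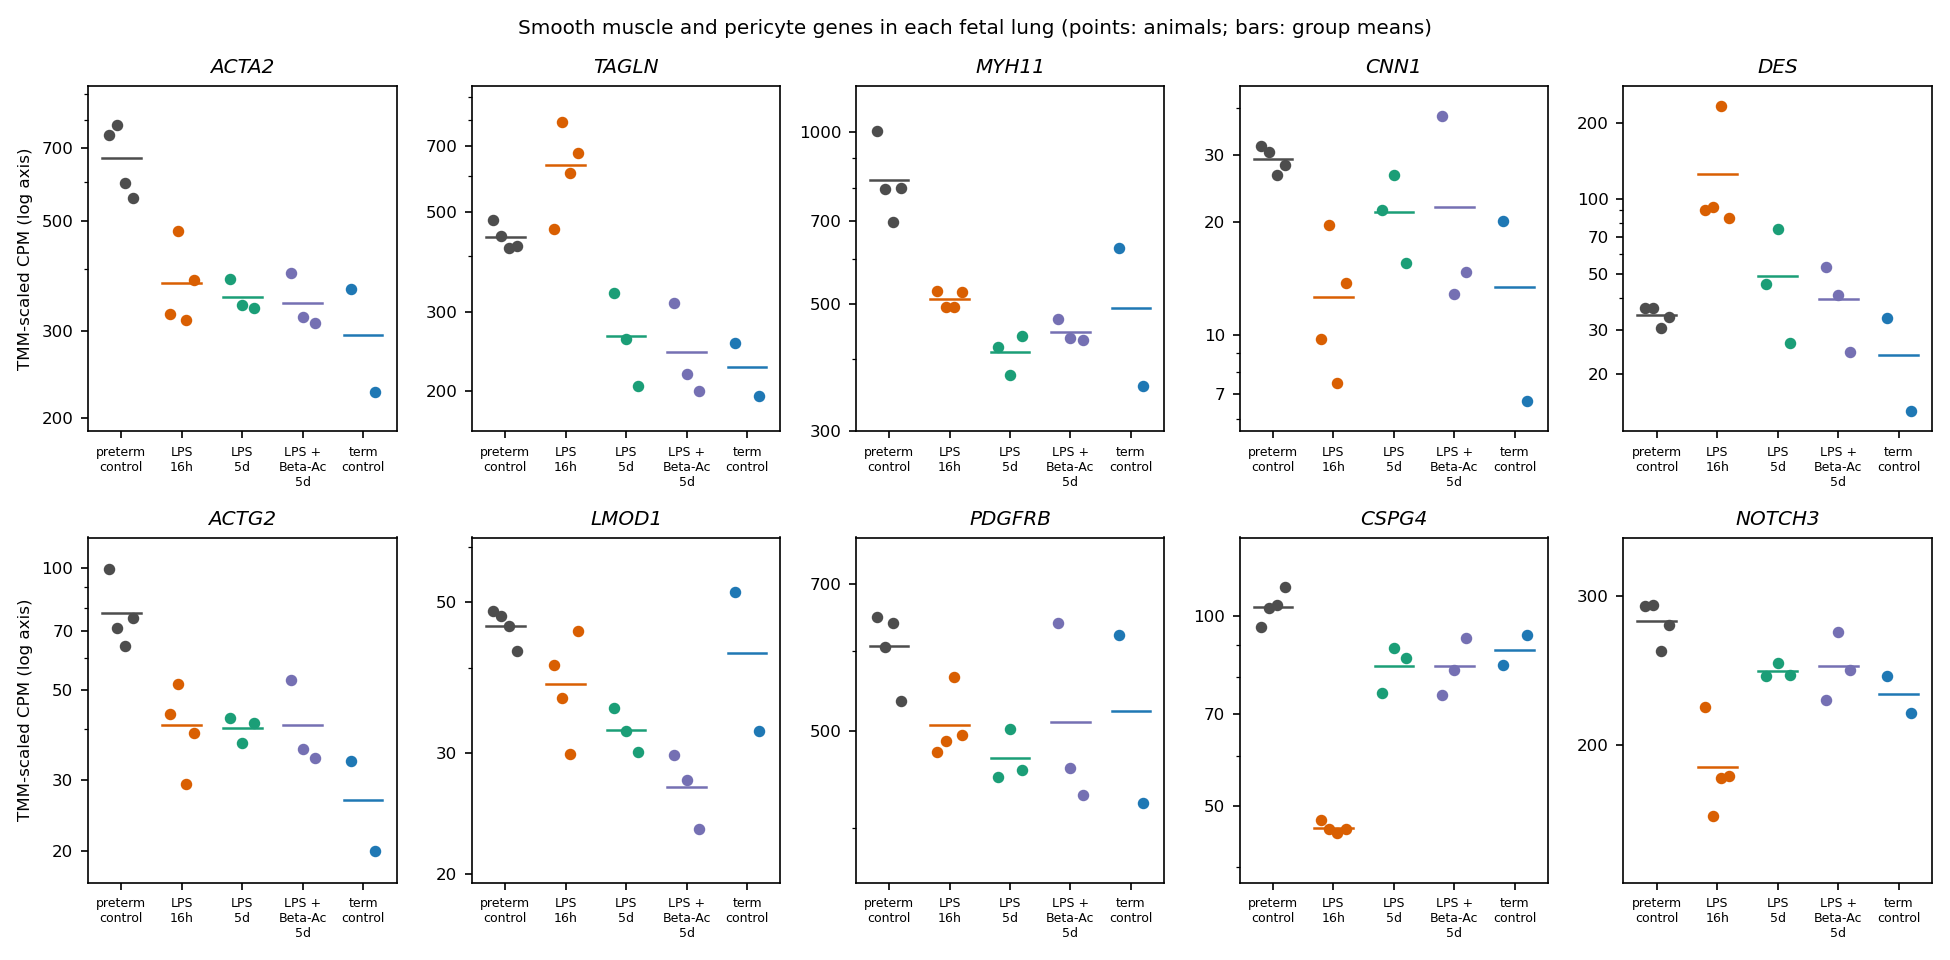
Expression of the 10 genes in each fetal lung. Each panel is 1 gene, the vertical axis is TMM-scaled CPM on a log scale, points are animals and horizontal bars are group means. The 4 preterm controls lie above every other animal for ACTA2, MYH11 and ACTG2, and the 4 LPS 16h animals lie below every other animal for CSPG4.

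ACTA2 codes for alpha smooth muscle actin, the main thin-filament actin of vascular smooth muscle. Its level was 745, 779, 597 and 556 CPM in the preterm controls 092, 101, 113 and 209, and 325, 478, 316 and 380 CPM in the LPS 16h animals 026, 029, 035 and 038. It was 381, 339 and 333 CPM in the LPS 5d animals 239, 240 and 242, 392, 320 and 311 CPM in the LPS + Beta-Ac animals 248, 249 and 255, and 364 and 226 CPM in the term controls 200 and 201. The lowest preterm control lay above the highest animal of each other group. ACTA2 differed from preterm controls by -0.84 (SE 0.17, adjusted p = 0.00104) at 16 hours, -0.92 (SE 0.18, adjusted p = 0.00366) in LPS 5d, -0.97 (SE 0.18, adjusted p = 0.00191) in LPS + Beta-Ac and -1.21 (SE 0.20, adjusted p = 0.00699) at term, which is 1.79-fold, 1.89-fold, 1.95-fold and 2.31-fold lower. The term difference alone was called, and without term control 201 it was -0.86 with an adjusted p of 0.0674. Fitted on the preterm and term libraries only, it was -1.17 with an adjusted p of 0.058. In the order preterm, LPS 16h, LPS 5d, LPS + Beta-Ac and term, no other pair of neighbours than the first passed the test.

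ACTG2 codes for gamma smooth muscle actin, the actin of visceral smooth muscle. Its level was 99.4, 71.2, 64.2 and 75.4 CPM in the preterm controls and 43.6, 51.6, 29.2 and 39.1 CPM at 16 hours after LPS. It was 42.6, 37 and 41.5 CPM in LPS 5d, 53, 35.8 and 33.9 CPM in LPS + Beta-Ac, and 33.3 and 20 CPM at term. As for ACTA2, every preterm control was above every other animal. ACTG2 was 1.91-fold lower at 16 hours (log2 fold change -0.93, SE 0.20, adjusted p = 0.00215), 1.90-fold lower in LPS 5d (-0.92, SE 0.22, adjusted p = 0.0117), 1.91-fold lower in LPS + Beta-Ac (-0.93, SE 0.22, adjusted p = 0.00875) and 2.96-fold lower at term (-1.56, SE 0.25, adjusted p = 0.00496), where it was called. Without LPS 5d animal 240, the LPS 5d difference was -0.86 with an adjusted p of 0.0561. The term level lay below the other groups, but its difference from the next group, LPS 16h, was 0.63 (SE 0.25) with an adjusted p of 0.0688.

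ACTA2 and ACTG2 are close paralogs with nearly identical proteins, so reads can be split between them in ways that cannot be seen in these counts. When both were added together before the fit, an alternative chosen after the data were seen, the sum was lower with an adjusted p under 0.05 in all 4 contrasts, and by at least 2-fold only at term, with log2 fold changes of -0.85 (adjusted p = 0.000942) at 16 hours, -0.92 (adjusted p = 0.00357) in LPS 5d, -0.96 (adjusted p = 0.00192) in LPS + Beta-Ac and -1.24 (adjusted p = 0.00593) at term. The ratio of ACTG2 to ACTA2 counts ranged from 0.0913 to 0.136 in the preterm controls, 0.0925 to 0.134 at 16 hours and 0.109 to 0.135 over both 5-day groups. In the term controls it was 0.0886 and 0.0914. The ranges of the 3 exposed groups lay within that of the preterm controls.

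MYH11 codes for smooth muscle myosin heavy chain, a marker of differentiated smooth muscle. It was at 1005, 797, 695 and 800 CPM in the preterm controls, and at 527, 495, 495 and 524 CPM 16 hours after LPS. It was at 421, 376 and 440 CPM in LPS 5d, at 471, 436 and 432 CPM in LPS + Beta-Ac, and at 627 and 359 CPM at term. No animal of another group reached the lowest preterm control. The differences from preterm controls were -0.68 (SE 0.15, adjusted p = 0.00185) at 16 hours, -0.99 (SE 0.16, adjusted p = 0.00101) in LPS 5d, -0.87 (SE 0.16, adjusted p = 0.00153) in LPS + Beta-Ac and -0.78 (SE 0.18, adjusted p = 0.0268) at term. The LPS 5d value was 1.99-fold lower, just short of the 2-fold limit, and it passed that limit when library totals were used in place of TMM. The term value rested on animal 201: without that animal it was -0.38 with an adjusted p of 0.276, and without term control 200 it was -1.18 with an adjusted p of 0.0119. It also lost the test without preterm control 092 (adjusted p = 0.0689) or 101 (adjusted p = 0.0527), and in the fit of only the preterm and term libraries (adjusted p = 0.171). No pair of neighbouring groups among the 4 lower groups passed the test.

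LMOD1, leiomodin 1, helps to start new actin filaments in smooth muscle. Its level was 48.5, 47.7, 46 and 42.3 CPM in the preterm controls and 40.4, 36.2, 29.9 and 45.3 CPM at 16 hours. It was 35, 32.4 and 30.1 CPM in LPS 5d, 29.8, 27.4 and 23.3 CPM in LPS + Beta-Ac, and 51.7 and 32.4 CPM at term. LMOD1 fell by 0.78 on the log2 scale in LPS + Beta-Ac (SE 0.16, adjusted p = 0.00394), and its difference in LPS 5d was -0.50 (SE 0.16, adjusted p = 0.0514). At 16 hours the difference was -0.30 (SE 0.15, adjusted p = 0.138) and at term -0.17 (SE 0.19, adjusted p = 0.689), and both of these groups overlapped the preterm controls. With library totals in place of TMM, LMOD1 passed the test at 16 hours (-0.50, adjusted p = 0.0111) and in LPS 5d (-0.52, adjusted p = 0.0372). In the order preterm, term, LPS 16h, LPS 5d and LPS + Beta-Ac, no pair of neighbours passed the test.

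TAGLN codes for transgelin, also called SM22 alpha, an actin-binding protein that appears early in smooth muscle differentiation. Its level was 479, 442, 416 and 421 CPM in the preterm controls. At 16 hours after LPS it was 458, 795, 611 and 676 CPM, with 3 of the 4 animals above every preterm control. It was 330, 261 and 205 CPM in LPS 5d, 314, 218 and 200 CPM in LPS + Beta-Ac, and 256 and 195 CPM at term, all below the lowest preterm control. TAGLN was 1.42-fold higher at 16 hours (log2 fold change 0.50, SE 0.19, adjusted p = 0.0431). That value did not pass with library totals in place of TMM (0.30, adjusted p = 0.164), nor without any 1 of 7 of the 8 animals compared (adjusted p from 0.0545 to 0.0973), and without animal 026 its adjusted p was 0.0113. It was 1.69-fold lower in LPS 5d (-0.75, SE 0.20, adjusted p = 0.0202), 1.83-fold lower in LPS + Beta-Ac (-0.87, SE 0.20, adjusted p = 0.00727) and 1.96-fold lower at term (-0.97, SE 0.23, adjusted p = 0.03). Without LPS 5d animal 240 the LPS 5d difference was -0.76 with an adjusted p of 0.067, without animal 242 it was -0.58 with an adjusted p of 0.102, and without preterm control 092 it was -0.71 with an adjusted p of 0.0549. Without term control 201 the term difference was -0.78 with an adjusted p of 0.194, and without term control 200 or preterm controls 092, 101 or 113 its adjusted p was 0.0885, 0.0738, 0.0607 and 0.0617. LPS 16h was above preterm controls and preterm controls above LPS 5d by this test, and the 3 lowest groups did not differ from their neighbours beyond the test.

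CNN1, calponin 1, binds actin and restrains the myosin ATPase. Its level was 31.7, 30.6, 26.6 and 28.3 CPM in the preterm controls and 9.81, 19.6, 7.46 and 13.8 CPM at 16 hours, without overlap. It was 21.5, 26.5 and 15.5 CPM in LPS 5d, 38.1, 12.9 and 14.7 CPM in LPS + Beta-Ac, and 20.1 and 6.69 CPM at term. The LPS + Beta-Ac animal 248 was the highest of the 16 animals, while the other 2 animals of its group were below every preterm control. CNN1 was called at 16 hours, where it was 2.46-fold lower (log2 fold change -1.30, SE 0.39, adjusted p = 0.0162), and without LPS 16h animal 035 the value was -1.08 with an adjusted p of 0.0555. The differences of -0.50 in LPS 5d (SE 0.42, adjusted p = 0.484), -0.60 in LPS + Beta-Ac (SE 0.42, adjusted p = 0.373) and -1.33 at term (SE 0.47, adjusted p = 0.136) did not pass. In its order of group levels, preterm, LPS 5d, LPS + Beta-Ac, LPS 16h and term, no neighbours passed the test.

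DES codes for desmin, the intermediate filament protein of muscle cells. Its level was 36.7, 36.8, 30.6 and 33.7 CPM in the preterm controls and 90, 92.8, 234 and 83.8 CPM at 16 hours after LPS. It was 45.7, 75.6 and 26.5 CPM in LPS 5d, 53.3, 41.1 and 24.5 CPM in LPS + Beta-Ac, and 33.3 and 14.2 CPM at term. All 4 LPS 16h animals were above the other 12, and animal 035 was far above the rest of its own group. DES rose 3.29-fold at 16 hours (log2 fold change 1.72, SE 0.39, adjusted p = 0.00308) and was called, and without animal 035 the value was 1.37 with an adjusted p of 0.00828. In LPS 5d the difference was 0.39 (SE 0.42, adjusted p = 0.602), in LPS + Beta-Ac 0.14 (SE 0.42, adjusted p = 0.871) and at term -0.66 (SE 0.47, adjusted p = 0.505), and each of these groups overlapped the preterm controls. Of the neighbours in the order of levels, LPS 16h and LPS 5d differed by the test and the others did not.

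Desmin is also made by heart and skeletal muscle, and the highest LPS 5d value, 75.6 CPM, was that of animal 240, the one with heart muscle markers. Without that animal the LPS 5d difference was 0.02 with an adjusted p of 0.989. At 16 hours the 17 markers of striated muscle summed to 36.6 to 57.2 CPM, against 36.8 to 60.9 CPM in the preterm controls, and MYH7 was at or below 0.64 CPM. Of the 13 genes of that list that were tested, 1 was called higher and 1 lower at 16 hours, against 8.30% and 6.07% of all genes. The gene called higher was TNNC2, a troponin of fast skeletal muscle, at 18.5 ± 2.67 CPM (SD, n = 4) at 16 hours and 1.93 ± 0.253 CPM (SD, n = 4) in the preterm controls. TNNC2 made up 15.1 to 20.9 CPM of the marker sum at 16 hours, against 1.61 to 2.17 CPM in the preterm controls. Sums without this gene were not compared. Animal 035 had the lowest striated marker sum of the LPS 16h group.

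**Figure D2:**
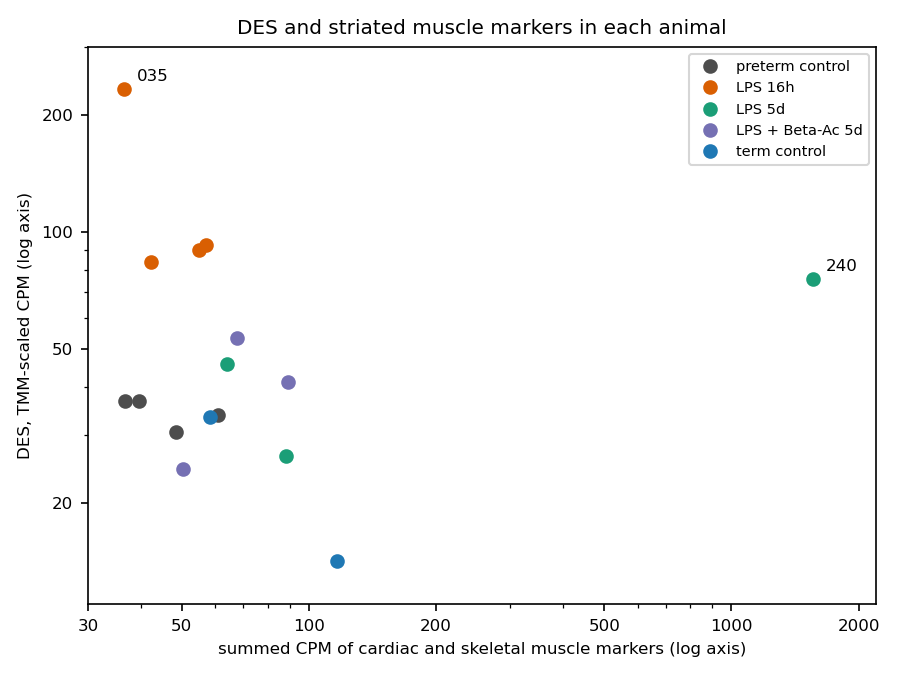
DES against markers of striated muscle in each animal. The horizontal axis is the summed CPM of 17 markers of heart and skeletal muscle and the vertical axis is DES in TMM-scaled CPM, both on log scales, with 1 point per animal. Animal 240 lies alone at 1562 CPM of markers, and the 4 LPS 16h animals lie at 36.6 to 57.2 CPM of markers with the highest DES values.

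PDGFRB codes for the receptor of PDGF-B on pericytes and other mesenchymal cells. Its level ranged from 535 to 648 CPM in the preterm controls, from 476 to 566 CPM at 16 hours, from 450 to 502 CPM in LPS 5d and from 432 to 639 CPM in LPS + Beta-Ac, and it was 623 and 424 CPM at term. The groups overlapped except for LPS 5d, whose animals were all below the preterm controls. The differences from preterm controls were -0.26 (SE 0.14, adjusted p = 0.15) at 16 hours, -0.37 (SE 0.15, adjusted p = 0.114) in LPS 5d, -0.27 (SE 0.15, adjusted p = 0.243) in LPS + Beta-Ac and -0.24 (SE 0.17, adjusted p = 0.497) at term, and none passed the test. With library totals in place of TMM the 16-hour difference was -0.47 with an adjusted p of 0.00599, and with only the preterm and LPS 5d libraries in the fit the LPS 5d difference was -0.34 with an adjusted p of 0.027. No neighbours in its order of levels passed the test.

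CSPG4 codes for the pericyte proteoglycan NG2. Its level was 96.1, 103, 104 and 111 CPM in the preterm controls and 47.5, 45.9, 45.3 and 46 CPM at 16 hours after LPS. It was 75.5, 89 and 85.8 CPM in LPS 5d, 75, 82.1 and 92.4 CPM in LPS + Beta-Ac, and 83.5 and 93.3 CPM at term. The LPS 16h animals were below all others, and the remaining exposed and term animals lay between them and the preterm controls without overlap on either side. CSPG4 was called at 16 hours, 2.23-fold lower (log2 fold change -1.16, SE 0.09, adjusted p = 1.19e-07), and without any 1 of the animals compared the value stayed between -1.19 and -1.12. In LPS 5d it was 1.24-fold lower (-0.31, SE 0.10, adjusted p = 0.0439) and in LPS + Beta-Ac 1.25-fold lower (-0.32, SE 0.10, adjusted p = 0.0354). Both of these small differences lost the test under other scalings, with adjusted p of 0.0731 and 0.0588 by median-of-ratios scaling, and the LPS 5d one lost it without any 1 of the 7 animals compared (adjusted p from 0.0519 to 0.202). Without LPS + Beta-Ac animal 248 the LPS + Beta-Ac difference was -0.25 with an adjusted p of 0.177, and without animal 249 or preterm controls 101, 113 or 209 its adjusted p was 0.15, 0.0635, 0.0733 and 0.0785. At term the difference was -0.23 (SE 0.11, adjusted p = 0.29). In the order of levels, LPS + Beta-Ac was above its neighbour LPS 16h by 0.84 (SE 0.10, adjusted p = 1.29e-05), in a contrast where 14.4% of all genes passed the test higher, and no other neighbours differed by the test.

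NOTCH3 codes for the Notch receptor of arterial smooth muscle and pericytes. Its level was 292, 293, 258 and 277 CPM in the preterm controls and 222, 165, 183 and 184 CPM at 16 hours. It was 241, 250 and 242 CPM in LPS 5d, 226, 272 and 245 CPM in LPS + Beta-Ac, and 241 and 218 CPM at term. The LPS 16h animals were below the preterm controls without overlap, and the difference was -0.58 (SE 0.10, adjusted p = 0.000288), or 1.49-fold lower. The differences of -0.20 in LPS 5d (SE 0.11, adjusted p = 0.251), -0.18 in LPS + Beta-Ac (SE 0.11, adjusted p = 0.278) and -0.29 at term (SE 0.12, adjusted p = 0.202) did not pass, although all LPS 5d and term animals were below the lowest preterm control. No neighbours in its order of levels passed the test.

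**Figure D3:**
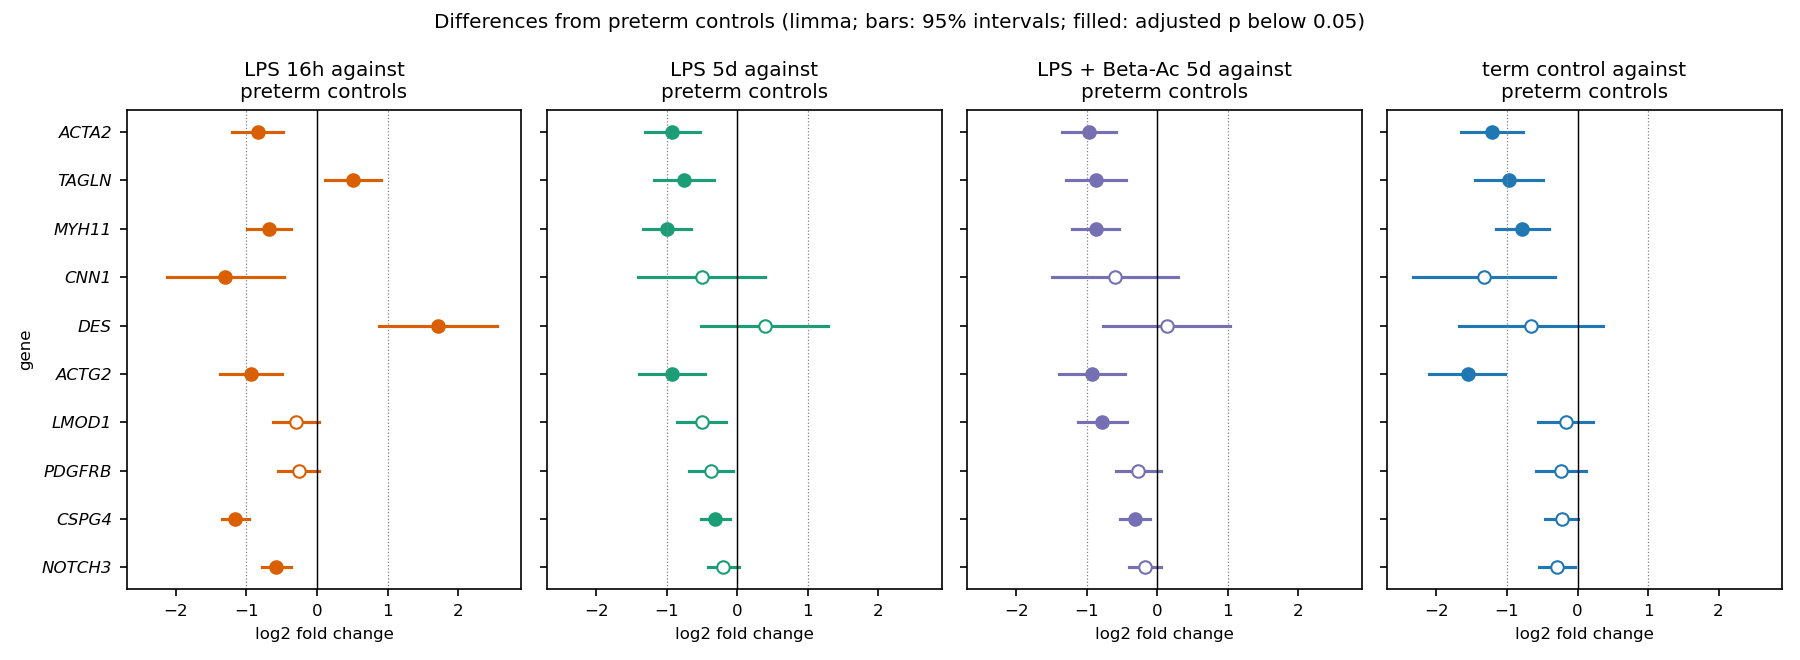
Differences of the 10 genes from preterm controls. Each panel is 1 group, the horizontal axis is the log2 fold change from limma, bars are 95% intervals, filled points have an adjusted p below 0.05, and dotted lines mark a 2-fold change. ACTA2, MYH11 and ACTG2 are filled and below 0 in all 4 panels, and DES lies at 1.72 at 16 hours.

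At 16 hours after LPS, 3 of the 10 genes were called, CSPG4 and CNN1 lower and DES higher, in a contrast where 14.4% of all genes tested were called, 6.07% lower and 8.30% higher. Without the minimum fold change, 8 of 10 passed the test, against 38.3% of all genes, and these were 6 lower against 19.6% and 2 higher against 18.7%. Without overlap, 6 of 10 lay below the preterm controls, against 16.6% of all genes, and DES lay above them, against 17.0%. The median of the 10 differences was -0.63 and that of all genes was -0.09. Of the 2758 genes called at 16 hours, 57.8% were higher. With library totals in place of TMM this share was 39.4% and the median of all genes moved to -0.29. With that scaling 5 of the 10 genes were called, and 3194 of the 19199 genes tested, against 2758 with TMM. Thinning every library at random to the smallest total, an alternative added after the data were seen, left the count at 3. Leukocyte markers moved with this contrast: 9 of them summed to 2156 to 2949 CPM at 16 hours and to 98.9 to 120 CPM in the preterm controls. All 9 were higher and 6 of 9 were called higher, against 8.30% of all genes. Their part in the levels of the 10 genes was not tested.

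In LPS 5d, 0 of the 10 genes were called, against 4.83% of all genes. By limma, 7 had an unadjusted p below 0.05, against 5378 of the 19199 genes tested. The adjusted test was passed by 5, all lower, against 9.23% of all genes lower, and limma-voom also called 0. In all, 9 genes lay below the preterm controls without overlap, DES being the exception, against 15.6% of all genes. The median difference was -0.50, and that of all genes was -0.00174. The count of called genes rested on values near the 2-fold limit, since it was 1 without both preterm control 209 and term control 200, 1 with library totals, and 0 to 2 when single animals were left out, with 2 without preterm control 113. Leukocyte markers summed to 224 to 243 CPM in this group, with 4 of 9 called higher, against 499 of 19199 genes. The part of leukocytes in these levels was not tested.

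In LPS + Beta-Ac, 0 of the 10 genes were called, against 6.50% of all genes, and limma-voom also called 0. By limma, 6 had an unadjusted p below 0.05, against 5769 of the 19199 genes tested. The adjusted test was passed by 6, all lower, against 10.2% of all genes lower. These 6 were also the ones without overlap below the preterm controls, against 16.1% of all genes. The median difference was -0.69 and that of all genes -0.01. Without animal 248, whose CNN1, DES and PDGFRB were the highest of its group, 3 genes were called, ACTA2 at -1.07, TAGLN at -1.07 and ACTG2 at -1.13. Leukocyte markers summed to 425 to 665 CPM, with 7 of 9 called higher, against 778 of 19199 genes. The part of leukocytes was not tested.

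At term, 2 of the 10 genes were called, ACTA2 and ACTG2, both lower, against 0.953% of all genes lower. In all, 4 passed the adjusted test lower, against 2.57% of all genes, and 7 lay below the preterm controls without overlap, against 15.2% of all genes. The median difference was -0.72 and that of all genes -0.01. The count was 1 without term control 201, and 1 when the fit used only the preterm and term libraries. The 2 term controls differed from each other, with animal 200 the higher for 9 of the 10 genes and animal 201 the higher for CSPG4 only. Leukocyte markers summed to 299 and 358 CPM, with 4 of 9 called higher, against 214 of 19199 genes. The part of leukocytes was not tested.

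Addition of Beta-Ac to LPS was compared directly at 5 days. None of the 10 genes was called or passed the test, none had an unadjusted p below 0.05 by limma, and limma-voom called 0. Over all genes 0.104% were called, and 925 of 19199 had an unadjusted p below 0.05 by limma. Log2 differences between LPS + Beta-Ac and LPS ranged from -0.28 to 0.12. The difference of LMOD1 was -0.28 (95% interval -0.65 to 0.09, adjusted p = 1), with all 3 LPS + Beta-Ac animals below the 3 LPS 5d animals, which held for 5.05% of all genes, and that of MYH11 was 0.12 (95% interval -0.24 to 0.48, adjusted p = 1). The intervals of CSPG4, NOTCH3, MYH11 and PDGFRB excluded a 2-fold change in either direction, and so did those of ACTA2, TAGLN, ACTG2 and LMOD1, but those of CNN1 (-1.05 to 0.86) and DES (-1.22 to 0.71) did not.

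The interval after LPS was compared between the LPS 16h and LPS 5d groups, which received the same dose. TAGLN was 2.39-fold higher at 16 hours (log2 fold change 1.26, SE 0.20, adjusted p = 0.000189) and DES 2.51-fold higher (1.33, SE 0.42, adjusted p = 0.024), both without overlap, and these 2 were called, against 8.02% of all genes called higher. CSPG4 was 1.80-fold lower (-0.85, SE 0.10, adjusted p = 9.44e-06) and NOTCH3 1.30-fold lower (-0.38, SE 0.11, adjusted p = 0.0108), also without overlap. Over all genes, 19.4% passed the test higher and 15.6% lower, and without overlap 21.0% were higher and 19.0% lower. MYH11 was higher at 16 hours in all 4 animals, but its difference of 0.31 (SE 0.16, adjusted p = 0.143) did not pass, and CNN1 differed by -0.80 (SE 0.42, adjusted p = 0.158). The DES call was lost without LPS 16h animal 035 (0.98, adjusted p = 0.0611), LPS 5d animal 239 (1.34, adjusted p = 0.0605) or LPS 5d animal 242 (0.94, adjusted p = 0.123), and the TAGLN call held without any 1 animal, between 1.09 and 1.43. Of the genes called in this contrast, 54.8% were higher at 16 hours, and 38% with library totals.

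Against the term controls, neither 5-day group had a called gene among the 10, and none passed the test. Of all genes 0.0625% were called for LPS 5d (50% of them higher, and 37.5% with library totals) and 0.568% for LPS + Beta-Ac (66.1% higher, and 52.7% with library totals). ACTG2 was above both term controls in every animal of both 5-day groups, by 0.64 (SE 0.26, adjusted p = 0.384) in LPS 5d and 0.63 (SE 0.26, adjusted p = 0.288) in LPS + Beta-Ac, where 14.0% and 15.6% of all genes were higher without overlap. LMOD1 in LPS + Beta-Ac was below both term controls in every animal, with a difference of -0.62 (SE 0.20, adjusted p = 0.162) and with 17.4% of all genes lower without overlap, and the DES difference of LPS 5d was 1.05 (SE 0.50, adjusted p = 0.463). With 2 term animals these intervals are wide, and a p above the threshold does not show that the levels were alike.

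Ratios between 2 genes within a library do not depend on how libraries are scaled to each other. They were chosen after the values were seen, so they are given as descriptions. Exact permutation tests over 24 contrasts of a ratio with preterm controls gave adjusted p of 0.114 or more. With groups this small, the lowest unadjusted p such a test can give is 0.0286 for an exposed group and 0.0667 for the term group. The term contrasts of a ratio could therefore not fall below 0.05. Since counts are not divided by transcript length, the ratios compare groups and not the abundance of the genes. The ratio of TAGLN to ACTA2 counts was 1.41 to 1.93 at 16 hours and 0.567 to 0.757 in the preterm controls, 2.55-fold apart. It was 0.614 to 0.865 in LPS 5d, 0.642 to 0.803 in LPS + Beta-Ac, and 0.704 and 0.864 at term. The DES to MYH11 ratio was 0.16 to 0.473 at 16 hours against 0.0365 to 0.0462 in the preterm controls, 5.27-fold apart. It was also above all preterm controls in every animal of LPS 5d (0.0602 to 0.201) and LPS + Beta-Ac (0.0568 to 0.113), whose DES levels themselves overlapped those of the preterm controls. The LPS 5d ratio of 0.201 was that of animal 240, the one with heart muscle markers. Without it the LPS 5d ratios were 0.109 in animal 239 and 0.0602 in animal 242. Among the mural genes, CSPG4 over PDGFRB was 0.08 to 0.0998 at 16 hours against 0.148 to 0.208 in the preterm controls. It was 0.168 to 0.188 in LPS 5d, 0.117 to 0.214 in LPS + Beta-Ac, and 0.134 and 0.22 at term. LPS + Beta-Ac animal 248 and term control 200 lay below the lowest preterm control in this ratio.

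**Figure D4:**
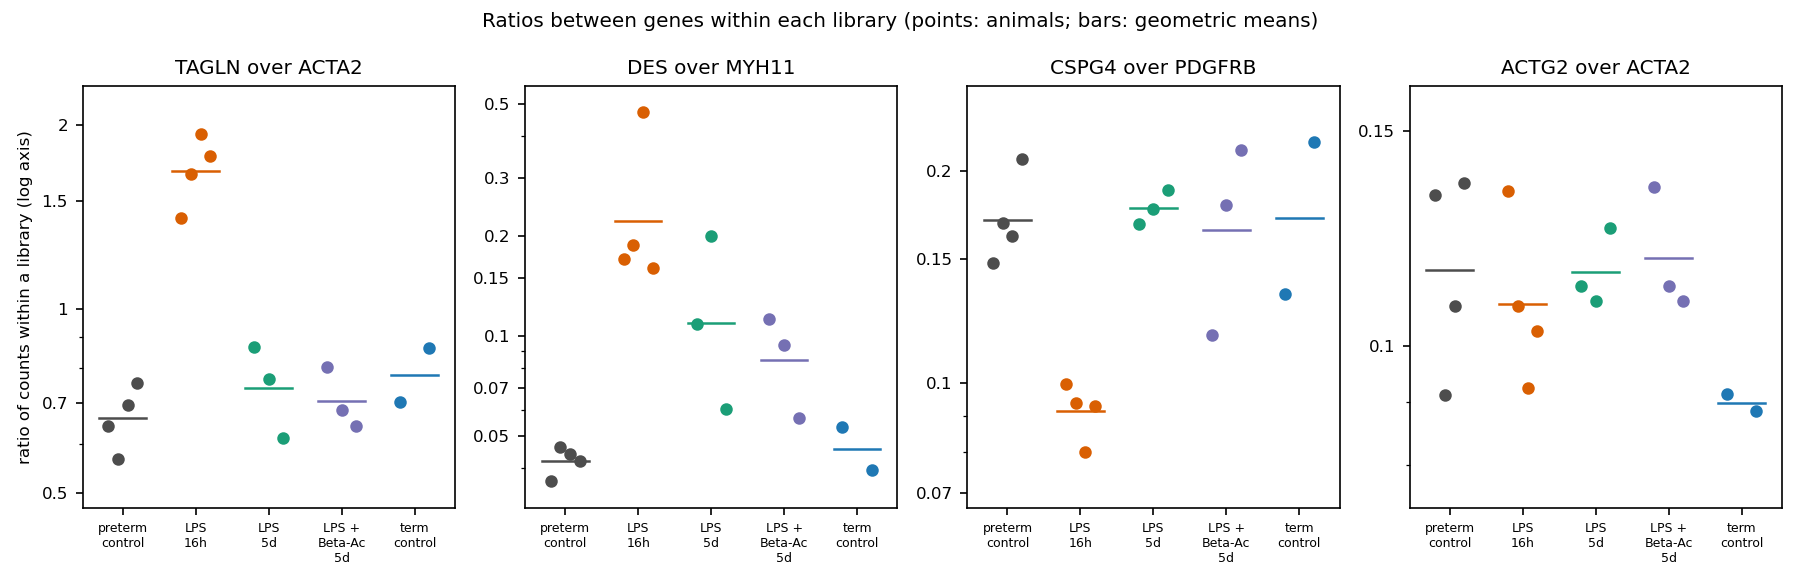
Ratios of counts between 2 genes within each library. The vertical axis is the ratio on a log scale, points are animals and bars are geometric means. TAGLN over ACTA2 is 1.41 to 1.93 in the 4 LPS 16h animals and at or below 0.865 in the others, and ACTG2 over ACTA2 overlaps between preterm and exposed groups.

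Animals of one group differed from each other in a way shared by several of the genes. In LPS + Beta-Ac, animal 248 was the highest for 8 of the 10 genes and animal 255 the lowest for 7. In the preterm controls, animal 092 was the highest for 6 genes and animal 113 the lowest for 6. Over the 16 animals, deviations from the group mean on the log2 scale correlated most between ACTA2 and CNN1 (Pearson r 0.82), ACTA2 and ACTG2 (0.77) and ACTG2 and CNN1 (0.79). Other pairs of contractile genes were lower, such as TAGLN and MYH11 (0.31) and DES and ACTA2 (0.23), down to 0.06 for DES and ACTG2. CSPG4 deviated the other way from all 7 contractile genes, with r from -0.71 with TAGLN to -0.42 with DES, and from PDGFRB (-0.66). These correlations are descriptions over 16 animals that share a library between the genes. Every exposed or term animal was below the lowest preterm control for at least 7 of the 10 genes, and animals 242, 255 and 201 for all 10. The share of all genes below the lowest preterm control was not computed per animal. All these animals were set against the same preterm controls, so their likeness is a description and not a result.

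**Figure D5:**
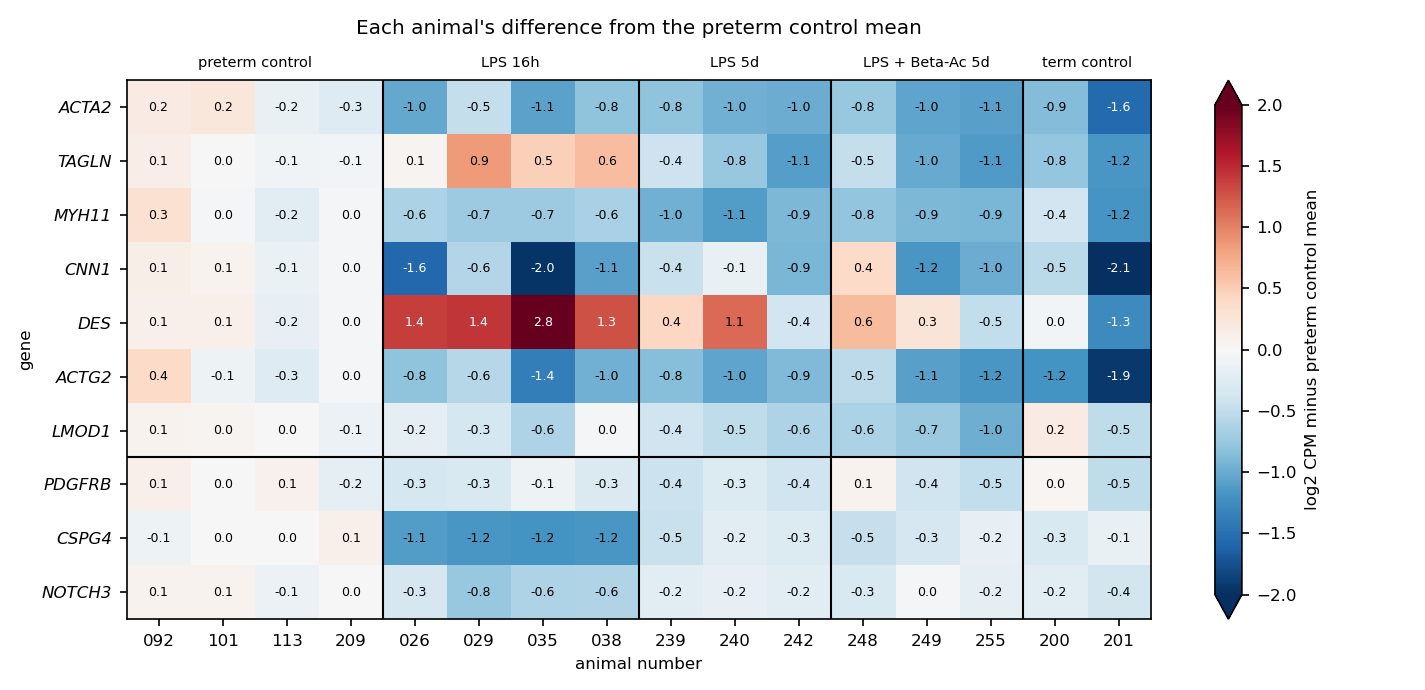
Difference of each animal from the preterm control mean. Rows are genes, columns are animals by number within their groups, and colour and printed values are log2 CPM minus the mean of the preterm controls; the colour scale ends at 2 in both directions and the horizontal line separates contractile from mural genes. The DES and TAGLN rows are above 0 in the LPS 16h columns, and the column of animal 201 is below 0 in every row.

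Other contractile genes were followed as a list of 31 tested genes, among them MYLK, TPM1 and CALD1. In the 4 contrasts with preterm controls, 13 of 31 passed the test lower at 16 hours, 4 in LPS 5d, 7 in LPS + Beta-Ac and 2 at term, against 19.6%, 9.23%, 10.2% and 2.57% of all genes. None passed the test higher in these contrasts. PDLIM3, a protein of the Z-disc and its counterpart in smooth muscle, was called at 16 hours, at 22.3 ± 9.88 CPM (SD, n = 4) against 53.4 ± 9.51 CPM (SD, n = 4) in the preterm controls (log2 fold change -1.37, adjusted p = 0.00279). In LPS 5d PDLIM3 was at 28 ± 6.28 CPM (SD, n = 3). NEXN, the actin-binding protein nexilin, was called in LPS + Beta-Ac, at 28.2 ± 6.69 CPM (SD, n = 3) against 57.1 ± 9.43 CPM (-1.03, adjusted p = 0.00226), a value at the 2-fold limit that fell to -0.86 without animal 249. NEXN was at 33 ± 6.39 CPM at 16 hours and 35.2 ± 5.89 CPM in LPS 5d, also below the preterm control mean. The list's medians were -0.36 at 16 hours, -0.24 in LPS 5d, -0.32 in LPS + Beta-Ac and -0.21 at term.

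Of 18 tested regulators of smooth muscle identity, 4 passed the test lower and 4 higher at 16 hours, 2 lower and 1 higher in LPS 5d, 3 lower in LPS + Beta-Ac and 1 lower at term. Of all genes, 19.6% passed lower and 18.7% higher at 16 hours, 9.23% lower and 5.49% higher in LPS 5d, 10.2% lower in LPS + Beta-Ac and 2.57% lower at term, so the counts at 16 hours and in LPS 5d were near the share over all genes. MYOCD, which codes for myocardin, was at 27.5 ± 2.13 CPM (SD, n = 4) in the preterm controls and was called in both 5-day groups, at 13.1 ± 3.22 CPM (SD, n = 3) in LPS 5d (log2 fold change -1.09, adjusted p = 0.0123) and at 13.3 ± 1.76 CPM (SD, n = 3) in LPS + Beta-Ac (-1.04, adjusted p = 0.0125). The first call was lost without LPS 5d animal 242 (-0.92, adjusted p = 0.0594) and the second without LPS + Beta-Ac animal 249 (-0.94, adjusted p = 0.0675). MYOCD was at 15.8 ± 5.7 CPM (SD, n = 4) at 16 hours, also below the preterm control mean. By limma its difference between 16 hours and LPS 5d was 0.21 (adjusted p = 0.578). At 16 hours the transcription factor genes TBX2 (154 ± 27.3 against 400 ± 49.8 CPM, log2 fold change -1.39, adjusted p = 1.73e-06) and FOXF1 (36.1 ± 2.99 against 75.6 ± 12.3 CPM, -1.05, adjusted p = 1.91e-05) were lower. TBX18 was called lower in LPS + Beta-Ac at low levels, 0.231 ± 0.302 CPM (SD, n = 3) against 1.61 ± 1.03 CPM (SD, n = 4), with groups that overlapped (-2.7, adjusted p = 0.00727).

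The Notch pathway was followed beyond NOTCH3 with 19 genes. At 16 hours 9 passed the test lower and 1 higher, in LPS 5d 3, in LPS + Beta-Ac 2 and at term 1 passed lower. Over all genes these shares were 19.6% lower and 18.7% higher at 16 hours, and 9.23%, 10.2% and 2.57% lower in the other groups, and the count in LPS + Beta-Ac was near its share. The 3 called at 16 hours, all lower, against 6.07% of all genes, were target genes of Notch signaling. HEYL was at 25.5 ± 3.87 against 54.4 ± 3.39 CPM (log2 fold change -1.10, adjusted p = 4.4e-06), HEY1 at 15.4 ± 2.87 against 32.9 ± 7.41 CPM (-1.08, adjusted p = 0.00268) and HEY2 at 3.12 ± 0.692 against 7.12 ± 1.76 CPM (-1.17, adjusted p = 0.00548). HEY2 was also called in LPS 5d (2.36 ± 0.536 CPM, -1.56, adjusted p = 0.00446) and in LPS + Beta-Ac (2.23 ± 0.936 CPM, -1.70, adjusted p = 0.00185). Among the 6 tested ligands and receptors of the PDGF family other than PDGFRB, none was called in any of the 4 contrasts, 2 passed the test lower in LPS + Beta-Ac, against 10.2% of all genes, and their log2 fold changes were all below 0 in LPS 5d and ranged from -0.99 to -0.03 in LPS + Beta-Ac and -1.13 to -0.25 at term. At 16 hours PDGFA (-0.87, adjusted p = 0.00141), PDGFB (-0.76, adjusted p = 0.00826) and PDGFRL (-0.97, adjusted p = 0.0117) passed the test, and the value furthest the other way was that of PDGFRA, 0.23 with an adjusted p of 0.331.

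Of 17 other tested genes of pericytes, 11 passed the test lower and 1 higher at 16 hours, against 19.6% and 18.7% of all genes. In that contrast 5 were called lower, against 6.07% of all genes. In LPS 5d and in LPS + Beta-Ac 5 passed lower, against 9.23% and 10.2% of all genes, and at term 1, against 2.57%. CD248, endosialin, was called in all 4 contrasts, from 72.7 ± 10 CPM (SD, n = 4) in the preterm controls to 21.4 ± 6.49 CPM at 16 hours (log2 fold change -1.80, adjusted p = 2.31e-06), 31.3 ± 4.28 CPM in LPS 5d (-1.21, adjusted p = 0.00127), 34.3 ± 1.66 CPM in LPS + Beta-Ac (-1.07, adjusted p = 0.00189) and 27.9 ± 4.84 CPM at term (-1.38, adjusted p = 0.0058). LAMC3 (-1.66, adjusted p = 9.63e-05), NDUFA4L2 (-1.68, adjusted p = 0.000449) and EDNRA, an endothelin receptor (-1.41, adjusted p = 3.23e-05), were also called lower at 16 hours. The level of NDUFA4L2 was low there, at 1.49 ± 0.616 CPM (SD, n = 4). EDNRA was called in LPS 5d as well (-1.03, adjusted p = 0.00392), and so was FAM162B (25.4 ± 5.43 against 52 ± 17.1 CPM, adjusted p = 0.0156), whose value without animal 240 was -0.81 with an adjusted p of 0.0888. The EDNRA value was -0.80 without LPS 5d animal 239. RGS5, a regulator of G protein signaling that marks pericytes, was called in LPS + Beta-Ac, at 162 ± 11.4 against 383 ± 65.4 CPM (-1.23, adjusted p = 0.0141), and without animal 248 its adjusted p was 0.0559 and without animal 249 0.0521. Its mean was also below that of the preterm controls at 16 hours (217 ± 63.7 CPM) and in LPS 5d (222 ± 99.7 CPM). S1PR3, a sphingosine 1-phosphate receptor, was at 107 ± 48 CPM at 16 hours, 51.3 ± 9.13 CPM in the preterm controls and 24.8 ± 3.51 CPM in LPS 5d. It passed the test higher at 16 hours (0.98, adjusted p = 0.00599) and lower in LPS 5d (-1.03, adjusted p = 0.0181), where the adjusted p was 0.0532, 0.0799 and 0.0563 without preterm control 113, LPS 5d animal 239 or LPS 5d animal 240, and the difference between 16 hours and 5 days was 2.01 (adjusted p = 4.07e-05).

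Among 27 tested receptors and effectors of smooth muscle tone, 7 passed the test lower and 3 higher at 16 hours, 5 lower in LPS 5d, 6 lower and 1 higher in LPS + Beta-Ac, and 1 lower at term. Of all genes, 19.6% passed lower and 18.7% higher at 16 hours, 9.23% lower in LPS 5d, 10.2% lower and 7.10% higher in LPS + Beta-Ac, and 2.57% lower at term, and the count at term was near its share. At 16 hours PDE5A, the phosphodiesterase that degrades cGMP, was at 54.4 ± 11.2 against 154 ± 23.6 CPM (log2 fold change -1.51, adjusted p = 1.97e-06), and KCNK3, a potassium channel of pulmonary artery smooth muscle, at 13.4 ± 1.3 against 29.1 ± 3.65 CPM (-1.12, adjusted p = 1.11e-05). PTGER4, a prostaglandin E2 receptor that leukocytes also carry, was higher at 16 hours (36.2 ± 5.75 against 6.09 ± 1.11 CPM, 2.56, adjusted p = 1.11e-07). CHRM3, a muscarinic receptor, was called higher at 16 hours at low levels (0.749 ± 0.365 against 0.226 ± 0.1 CPM, 1.42, adjusted p = 0.0211), and the call was lost without LPS 16h animal 026 (adjusted p = 0.0529), LPS 16h animal 038 (adjusted p = 0.0731) or preterm control 209 (adjusted p = 0.0535). EDNRB, an endothelin receptor that endothelium also carries, was called lower in LPS 5d (-1.22, adjusted p = 0.00271), LPS + Beta-Ac (-1.65, adjusted p = 0.000229) and at term (-1.20, adjusted p = 0.021), and the term value had an adjusted p of 0.119 without term control 200 and 0.0988 without term control 201. IRAG1, a substrate of cGMP-dependent kinase, was called in LPS + Beta-Ac (-1.02, adjusted p = 0.00282), and its value without animal 255 was -0.95. Several of the calls with preterm controls lay near the 2-fold limit: without preterm control 092, FOXF1 at 16 hours was -0.98 and EDNRB was -0.97 in LPS 5d and -0.95 at term, and without preterm control 101, HEY1 at 16 hours was -0.97.

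Between 16 hours and 5 days after LPS, other genes of the lists were also called. In addition to S1PR3, PTGER4 (log2 fold change 2.63, adjusted p = 3.34e-07) and ADRA1A, an adrenergic receptor (1.33, adjusted p = 0.0134), were higher at 16 hours. TBX2 (-1.10, adjusted p = 4.78e-05), LAMC3 (-1.07, adjusted p = 0.00589) and LMO7, which links actin to cell junctions (-1.23, adjusted p = 4.6e-05), were lower. So were ADRA1B, another adrenergic receptor (-1.54, adjusted p = 0.00412), and CASQ2, the calsequestrin of heart (-2.37, adjusted p = 0.0398). Mean levels at 16 hours and in LPS 5d were low for ADRA1A (2.67 and 0.984 CPM), ADRA1B (0.662 and 2.14 CPM) and CASQ2 (0.65 and 8.42 CPM). The call of CASQ2 rested on animal 240, the one with heart muscle markers, without which its value was -0.95 with an adjusted p of 0.207, and without LPS 16h animal 026 its adjusted p was 0.0829, without 029 0.0586 and without 035 0.101. The LAMC3 value was -0.79 without LPS 16h animal 035, the TBX2 value was -0.98 without LPS 16h animal 038, and the ADRA1A adjusted p was 0.0581 and 0.0583 without LPS 5d animals 239 and 240. No gene of these lists was called between LPS + Beta-Ac and LPS at 5 days, or between either 5-day group and the term controls.

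Genes with the pattern most like that of the 10 genes were sought over all 16 animals by Pearson correlation with the mean standardized level of the 7 contractile genes, and separately of the 3 mural genes. The 8 most like the contractile genes were TGFB1I1, THY1, PDLIM7, MMP2, PCDHGB5, GALNT17, KIF23 and WEE1, with r from 0.84 to 0.90. TGFB1I1, which codes for the focal adhesion protein Hic-5, was at 80.3 ± 5.48 CPM (SD, n = 4) in the preterm controls and at 57.2 ± 5.09 to 61 ± 9.26 CPM as means of the other groups, and its deviations from the group means followed those of the contractile genes with r 0.89. The 8 most like the mural genes were RSPO2, LTBP2, TBX5, TBX4, EPN2, PXYLP1, SHANK1 and TSPAN12, with r from 0.93 to 0.95. RSPO2, a secreted enhancer of Wnt signaling, was at 157 ± 17.3 CPM (SD, n = 4) in the preterm controls, 51 ± 12.5 CPM (SD, n = 4) at 16 hours, 86.3 ± 3.47 CPM (SD, n = 3) in LPS 5d and 98.5 ± 21.4 CPM (SD, n = 3) in LPS + Beta-Ac. These correlations rest on differences between groups and on shared libraries.

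Markers of other cells that surround or resemble smooth muscle were measured in the same libraries. The 12 markers of matrix fibroblasts summed to 12770 to 21098 CPM in the preterm controls, 8346 to 12169 CPM at 16 hours, 8368 to 14648 CPM in LPS 5d, 7989 to 10933 CPM in LPS + Beta-Ac, and 7981 and 8139 CPM at term. The 9 endothelial markers summed to 2502 to 3024 CPM in the preterm controls, 2036 to 2388 CPM at 16 hours, 1730 to 2579 CPM in LPS 5d and 2072 to 2504 CPM in LPS + Beta-Ac, and to 1568 and 2174 CPM at term. The 12 markers of airway cartilage summed to 165 to 472 CPM in the preterm controls and to 102 to 188 CPM over the other groups. The 7 markers of lung epithelium summed to 6164 to 8790 CPM in the preterm controls, 6806 to 14318 CPM at 16 hours, 11611 to 17278 CPM in LPS 5d, 12479 to 17443 CPM in LPS + Beta-Ac, and 12449 and 15069 CPM at term. Every animal of both 5-day groups and of the term group was thus above all preterm controls, in contrasts where ACTA2, ACTG2, MYH11 and TAGLN were lower. At 16 hours ACTA2, ACTG2 and MYH11 were also lower, and there the epithelial sums overlapped those of the preterm controls. The part of the epithelial sums in the differences of these genes was not tested. The 8 markers of mesothelium summed to 184 to 312 CPM in the preterm controls, 140 to 266 CPM at 16 hours, 296 to 382 CPM in LPS 5d, 288 to 359 CPM in LPS + Beta-Ac, and 248 and 382 CPM at term. The 9 markers of ciliated airway epithelium summed to 138 to 363 CPM in the preterm controls and 65.6 to 226 CPM at 16 hours, with 79.4 to 249 CPM over the other groups. The 6 of glia and melanocytes summed to 22.6 to 36.8 CPM in the preterm controls and 15.7 to 25.2 CPM at 16 hours, with 14.3 to 41.8 CPM over the other groups. The sum of the 10 smooth muscle and pericyte genes themselves was 2877 to 3482 CPM in the preterm controls, 2239 to 2669 CPM at 16 hours, 1876 to 2044 CPM in LPS 5d, 1809 to 2291 CPM in LPS + Beta-Ac, and 1589 and 2333 CPM at term. In the cartilage and ciliated lists preterm control 209 was the highest animal of its group, and the part of such differences in sampled tissue in these levels was not tested.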

How the data were processed

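Bulk RNA of 16 fetal lungs, 1 library per animal, was sequenced by the authors as 75 bp paired-end reads, quantified with kallisto against the rhesus assembly Mmul_10 and summarized per gene with tximport, in versions that were not stated. The authors deposited whole-number counts per Ensembl gene with no normalization. The column names are bare animal numbers and state no unit, but all values were non-negative whole numbers. Log2 values were tested in place of a count model, with limma-voom as an alternative. A table of gene names matched 17256 of 22515 identifiers.

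Counts were scaled with TMM factors (30% of M and 5% of A values trimmed), expressed as log2 CPM with a prior count of 2 and fitted with limma 3.58.1 in R 4.3.3 (trend, robust), all 5 groups sharing 1 estimate of the spread. The filter kept a gene that reached 0.371 CPM (equal to 10 counts in a library of median size) in at least 2 animals and whose counts summed to at least 15, and 19199 genes were tested. P-values are two-sided and Benjamini-Hochberg adjusted over all genes of a contrast. The script was tested on simulated counts. No paired analysis was possible because no animal number is shared between groups. Pairs of libraries within a group differed by a chi-square per degree of freedom of 31.1 to 166, so none was a duplicate.

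The members and gene lists were chosen with earlier results of these data known. From the lists of contractile, regulatory, Notch, PDGF, pericyte and tone genes, at most the 4 called genes with the largest change per list, contrast and direction were named, with PDGFRL and PDGFRA as the extremes of a list without calls. One called gene of these lists is counted but not reported here. PDGFA, PDGFB, MYH7, TNNC2 and MYOD1 were named after their values were seen. Alternatives were other scalings, no filter, limma-voom, another prior count, no minimum fold, only the groups compared and each animal left out. Thinning, leaving out 209 and 200 together, the summed actins and the ratios were chosen after the data were seen.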

Additional observations from a re-analysis of the deposited data

Results flagged for a closer look

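DES in LPS 16h animal 035 lay far from the other 3 animals of its group. On the log2 CPM scale its gap to the nearest animal was 0.901 of the range of the group. Over the 10 genes, 20 groups of 4 animals were examined in this way and this was the only one past Dixon's 95% limit, and chance puts about 1 in 20 groups past it.

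Levels differed between the LPS 16h and LPS 5d groups for 4 of the 10 genes by limma, near the 35.0% of all genes that passed the same test. The interval cannot be told apart from the age at treatment and library depth, which also differed between these groups. The log2 difference between 16 hours and 5 days was 1.26 for TAGLN, 1.33 for DES, -0.849 for CSPG4 and -0.382 for NOTCH3, with adjusted p of 0.000189, 0.024, 9.44e-06 and 0.0108. The DES difference lost its call without LPS 16h animal 035 or LPS 5d animals 239 or 242.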

How the results depend on the processing

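Besides leaving out single animals, 768 values were recomputed, of which 740 kept their direction and stayed called or not called. Of the rest, 16 lost a call, 12 gained one and 0 reversed. A value under 2-fold that lost or gained only the adjusted test counts as kept. These totals therefore do not measure how stable the adjusted test was. Of 679 values with 1 animal left out, 606 were kept, 47 lost a call, 23 gained one and 3 reversed. The number of the 10 genes called in LPS 5d, LPS + Beta-Ac, term and LPS 16h against preterm controls was 0, 0, 2 and 3. Without the minimum fold change it was 5, 6, 4 and 8, and for LPS 16h against LPS 5d it was 4, since the limit is then the adjusted p alone. With library totals it was 1 in LPS 5d and 5 at 16 hours, where 930 and 3194 genes in all were called. It was 1 at term in the fit of only the groups compared. Without both preterm control 209 and term control 200 it was 1 in each 5-day group. With single animals left out it ranged from 0 to 2 in LPS 5d, from 0 to 3 in LPS + Beta-Ac, from 1 to 3 at term, from 2 to 4 at 16 hours, and from 1 to 2 for LPS 16h against LPS 5d. The cause was not tested for these other than the first. Values that reversed with single animals left out ranged from -0.505 to 0.166 for LMOD1 and from -0.515 to 0.0415 for PDGFRB at term, and from -0.114 to 0.444 for DES in LPS + Beta-Ac, none of which passed the test. The smallest count behind any value of the 10 genes was 207, and the term group held 2 animals.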
